A study of Mus musculus with 8 samples.

Results

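The data comprised 10 marker genes of macrophages and of Kupffer cells, the resident macrophages of the liver, out of 55536 counted genes. The genes were listed by name, with no measured value in the rule, although earlier results of these data were known. They fell into 4 genes typical of Kupffer cells (Clec4f, Vsig4, Timd4 and Marco), 5 genes used as general macrophage markers (Adgre1, Cd68, Mertk, Mrc1 and Cd163) and the interferon-induced gene Siglec1. RNA was sequenced from 8 bulk tumors of HCA-1, a mouse hepatocellular carcinoma line, each grown in the liver of a male C3H mouse. On day 17 after implantation, 4 mice were given PFSUV-IMQ intravenously (labelled IMQNP, numbered 1 to 4) and 4 served as saline controls (labelled Control, numbered 1, 3, 4 and 5), and tumors were taken 3 h later. PFSUV-IMQ is imiquimod (IMQ), an agonist of the RNA sensor TLR7, loaded in phospholipid-free small unilamellar vesicles. All mice were 6 to 8 weeks old by the labels, and the methods give a younger range for the C3H mice as purchased. The tumors contained cells of the line and of the host, and any adjoining liver in the sample would contribute resident macrophages and hepatocytes as well.

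Kupffer cells line the liver sinusoids, where they remove bacteria, immune complexes, aged red cells and injected particles from the blood. They share F4/80 and CD68 with other macrophages, and carry a further set of surface receptors that is acquired in the liver. Macrophages recruited to a tumor from circulating monocytes express the shared markers but usually lack much of the Kupffer set. Siglec1 (CD169) is found on some resident macrophages and is also induced by type I interferon in monocytes and macrophages. In bulk tumors, fewer cells of a type and less RNA per cell cannot be told apart.

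Among the receptors of the Kupffer set, Clec4f is a C-type lectin restricted to Kupffer cells in the mouse. Vsig4 (CRIg) is a complement receptor that binds C3b on opsonized particles. Timd4 (TIM-4) binds phosphatidylserine on dying cells, and Marco is a class A scavenger receptor for bacteria and particles. Among the general markers, Adgre1 encodes F4/80, Cd68 a lysosomal membrane glycoprotein, and Mertk a receptor kinase for the uptake of apoptotic cells. Mrc1 encodes the mannose receptor CD206, which liver sinusoidal endothelium also expresses. Cd163 is the scavenger receptor for complexes of hemoglobin and haptoglobin.

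RefSeq promoter windows on GRCm38.p6, 250 bases before to 50 after the transcription start, were matched for 8 of the 10 genes, all except Adgre1 and Siglec1. The windows are shown for the Kupffer genes and for Cd163, a choice made with the values known. Only Vsig4 of these genes was called lower, so the windows do not compare lower genes with others. Only bases before the annotated gene start are printed, 5′ to 3′ on the strand of the gene. Capitals mark 2 motifs searched on both strands, GAGGAAG, a site of the myeloid factor PU.1, and TGCTGA, a MAF half-site (TCAGCA where it lies on the opposite strand).
Clec4f (chr6:83656188-83656366, minus strand): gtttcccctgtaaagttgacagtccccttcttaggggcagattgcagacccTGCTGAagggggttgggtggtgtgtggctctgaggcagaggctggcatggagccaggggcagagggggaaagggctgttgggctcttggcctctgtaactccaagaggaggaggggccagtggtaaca
Vsig4 (chrX:96293439-96293688, minus strand): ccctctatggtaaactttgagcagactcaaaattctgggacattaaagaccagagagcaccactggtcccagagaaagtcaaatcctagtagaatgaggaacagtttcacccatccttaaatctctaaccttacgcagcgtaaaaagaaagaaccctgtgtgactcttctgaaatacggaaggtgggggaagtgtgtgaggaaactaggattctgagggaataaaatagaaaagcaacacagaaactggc
Cd163 (chr6:124304401-124304650, plus strand): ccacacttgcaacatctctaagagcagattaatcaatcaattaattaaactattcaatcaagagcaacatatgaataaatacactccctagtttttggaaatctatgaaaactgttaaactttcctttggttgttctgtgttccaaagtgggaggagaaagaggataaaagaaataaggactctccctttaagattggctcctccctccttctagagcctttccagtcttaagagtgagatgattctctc
Timd4 (chr11:46810549-46810798, plus strand): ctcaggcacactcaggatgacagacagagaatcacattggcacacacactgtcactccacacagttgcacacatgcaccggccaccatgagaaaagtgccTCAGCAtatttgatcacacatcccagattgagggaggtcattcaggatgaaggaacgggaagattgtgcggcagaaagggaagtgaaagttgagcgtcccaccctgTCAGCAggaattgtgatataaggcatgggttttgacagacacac
Marco (chr1:120505025-120505274, minus strand): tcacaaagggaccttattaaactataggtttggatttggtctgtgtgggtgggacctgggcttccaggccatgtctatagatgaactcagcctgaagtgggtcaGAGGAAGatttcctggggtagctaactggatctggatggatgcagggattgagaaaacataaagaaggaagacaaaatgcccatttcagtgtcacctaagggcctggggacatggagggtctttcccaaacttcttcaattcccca
A MAF half-site occurred in the printed stretches of Clec4f and Timd4, with 2 copies in Timd4, and in 19.48% of all 32851 windows. In Vsig4 a match lay after the start, at bases 24 to 29, outside the stretch shown. The PU.1 motif occurred in the window of Marco, and at 2 places in that of Mrc1, against 13.63% of all windows. The interferon-stimulated response element was in none of the 8 windows and in 3.443% of all windows. The windows of Cd163, Cd68 and Mertk held none of the 3 motifs. These matches describe the sequence and do not show that a factor was bound.

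Library totals ranged from 16883911 to 27687756 counts, so that 3 counts in a tumor, the floor used here, corresponded to 0.108 to 0.178 CPM (counts per standard library size). All 10 genes passed the filter on low counts, with 50 to 4475 counts per tumor and gene. Levels below are normalized CPM, scaled by edgeR's TMM factors, and are given in the order of the replicate numbers. Groups were compared over all 15998 tested genes in edgeR (quasi-likelihood test, Benjamini-Hochberg adjustment), and log2 fold changes are given ± their standard error (SE). To be called, a gene needed a log2 fold change above 1 or below -1 together with an adjusted p below 0.05. On this scale the median log2 fold change of all tested genes was -0.03. No sequencing batch is given. Saline 4 and PFSUV-IMQ 2 stood apart from the other 6 tumors in hepatocyte genes, with albumin (Alb) at 22446 and 22736 CPM against 2938 to 9027 CPM, and the fit without both is given below for each of the 10 genes.

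The gene that separated the groups was Vsig4, which was lower after PFSUV-IMQ. Of the 10 genes, 1 was called lower (0.200% of all tested genes were) and 0 were called higher (2.26% of all tested genes were). At an unadjusted p under 0.05 in edgeR's test, 3 of the 10 were lower (Clec4f, Vsig4 and Cd163) and 0 were higher, against 4.65% and 8.34% of all tested genes. The Wald test of DESeq2 likewise called Vsig4 alone, with 0.713% of all tested genes called lower and 3.58% higher by that test. Every PFSUV-IMQ tumor lay below every saline tumor for 1 of the 10 genes, Vsig4, against 3.28% of all tested genes. The opposite order was found for 0 of the 10 genes, against 6.00% of all tested genes.

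**Figure D1:**
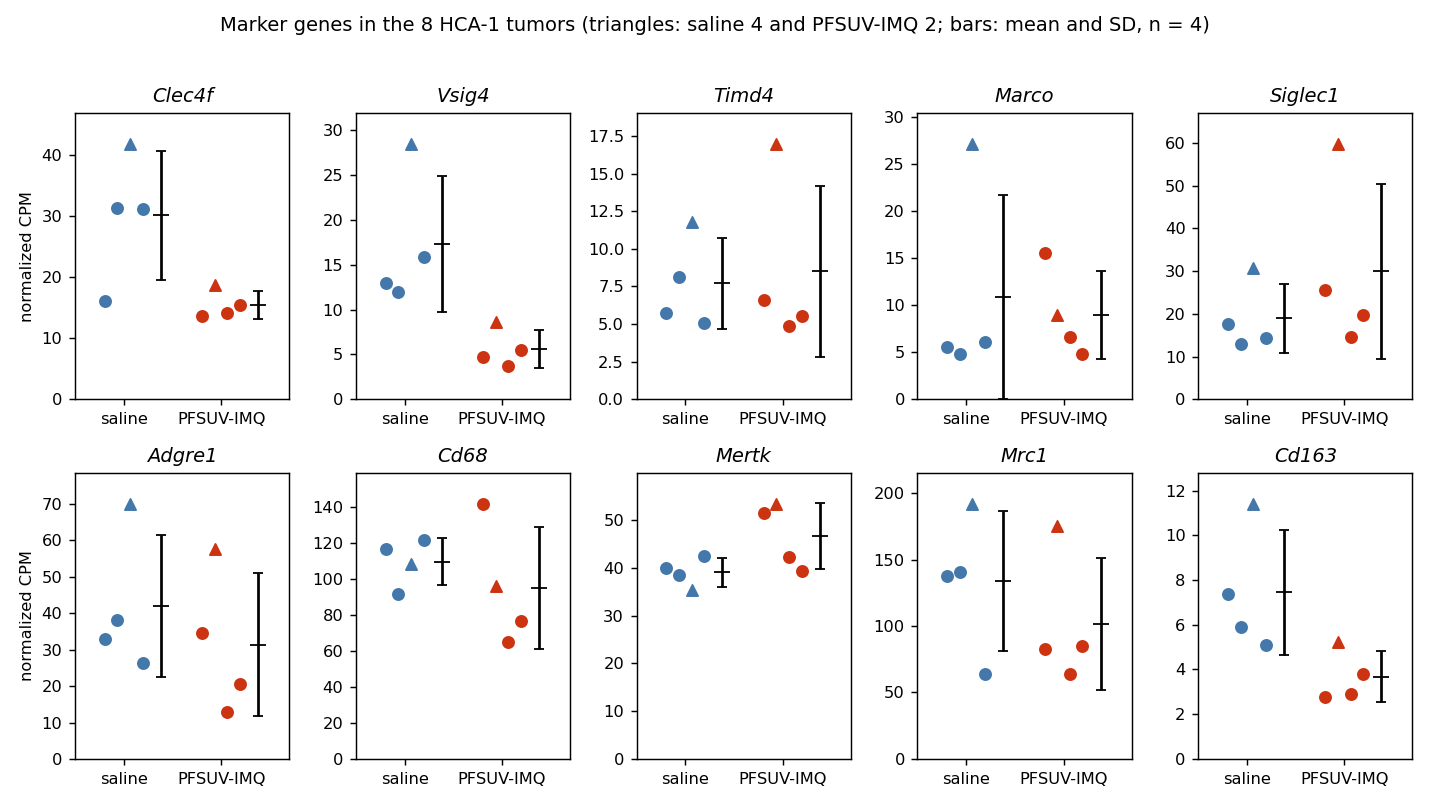
Normalized CPM (linear axes from 0) of the 10 genes in each of the 4 saline (blue) and 4 PFSUV-IMQ (red) tumors, with the mean and SD of each group (black, n = 4) and with triangles for saline 4 and PFSUV-IMQ 2, the tumors rich in hepatocyte genes. The groups are apart for Vsig4, with 3.74 to 8.59 CPM after PFSUV-IMQ below 11.9 to 28.4 CPM after saline, and overlap for the other 9 genes.

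Vsig4 (ENSMUSG00000044206, chromosome X, 96247203 to 96293438, GRCm38) was at 13, 11.9, 28.4 and 15.8 CPM in the saline tumors 1, 3, 4 and 5. In the PFSUV-IMQ tumors 1 to 4 it was at 4.69, 8.59, 3.74 and 5.51 CPM. The groups did not overlap, and the highest value of each group was in its hepatocyte-rich tumor. The mean fell from 17.3 ± 7.61 to 5.63 ± 2.103 CPM (SD, n = 4 each), and the log2 fold change was -1.62 ± 0.35 (SE, edgeR adjusted p = 0.0453). Mean RNA of the complement receptor gene was thus at 0.326 of its saline level. The adjusted p was close to the threshold, and when tumors were left out singly the call was kept in 1 of 8 fits, the one without PFSUV-IMQ 2. In those fits the log2 fold change ranged from -1.91 to -1.27 and the adjusted p from 0.0225 to 0.124.

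Clec4f (ENSMUSG00000014542, chromosome 6, 83644542 to 83656187) was at 16.1, 31.3, 41.8 and 31.2 CPM in saline tumors 1, 3, 4 and 5. After PFSUV-IMQ it was at 13.6, 18.7, 14.2 and 15.4 CPM. The overlap came from saline 1, which lay below PFSUV-IMQ 2 but above the other 3 treated tumors. Means were 30.1 ± 10.6 and 15.5 ± 2.28 CPM, with a log2 fold change of -0.96 ± 0.27 (SE) that was not called (edgeR adjusted p = 0.122). In DESeq2 its adjusted p was 0.0343, and the log2 fold change of -0.94 there was inside the limit for a call. Without saline 1 it was -1.17 and called lower (edgeR adjusted p = 0.0316), the only one of the 8 fits with a tumor left out in which Clec4f was called.

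For the other Kupffer genes the difference was smaller than the spread between tumors. Timd4 (ENSMUSG00000055546, chromosome 11, 46810800 to 46844332) was at 5.76, 8.15, 11.8 and 5.10 CPM after saline and at 6.62, 17.0, 4.91 and 5.57 CPM after PFSUV-IMQ. RNA of the phosphatidylserine receptor gene was highest in PFSUV-IMQ 2 and next highest in saline 4, with the other 6 tumors between 4.91 and 8.15 CPM. Its log2 fold change was 0.14 ± 0.44 (SE, edgeR adjusted p = 0.946) and ranged from -0.45 to 0.42 with each tumor left out.

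Marco (ENSMUSG00000026390, chromosome 1, 120474538 to 120505024) was at 5.53, 4.81, 27.1 and 6.14 CPM after saline and at 15.5, 8.94, 6.58 and 4.80 CPM after PFSUV-IMQ. Saline 4 held the highest level and PFSUV-IMQ 1 the next. The log2 fold change was -0.28 ± 0.60 (SE, edgeR adjusted p = 0.915). It was 0.70 without saline 4 and below 0 without any other single tumor. The log2 fold changes of the Kupffer genes thus had a median of -0.62, with 3 of 4 below 0, against 53.99% of all tested genes below 0. Without saline 4 this median was -0.17, with Timd4 at 0.42 and Marco at 0.70, and without 1 of the other tumors it ranged from -0.84 to -0.50.

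**Figure D2:**
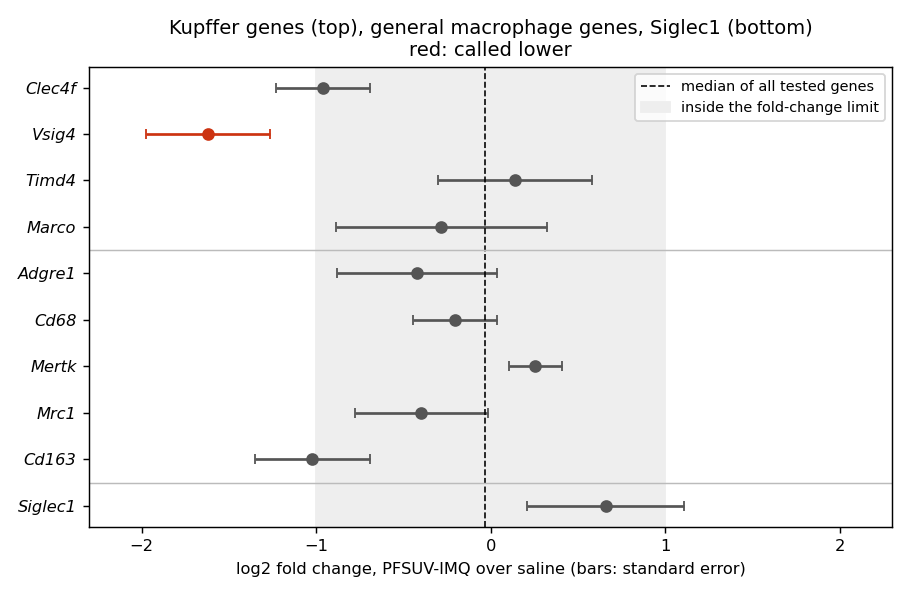
Fitted log2 fold change (PFSUV-IMQ over saline, bars show 1 standard error) of the 10 genes, with the median of all tested genes (dashed line, -0.03) and the limit of 1 in size (shaded). Vsig4 (red) is the one gene called, at -1.62, Clec4f and Cd163 lie near -1, and Siglec1 is highest at 0.66.

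None of the 5 general macrophage genes was called by edgeR or by DESeq2, and 1 of them, Cd163, was lower at an unadjusted p below 0.05 (4.65% of all tested genes were). Cd163 (ENSMUSG00000008845, chromosome 6, 124304656 to 124330527) was at 7.37, 5.90, 11.4 and 5.10 CPM after saline. It was at 2.76, 5.24, 2.90 and 3.80 CPM after PFSUV-IMQ. The overlap was PFSUV-IMQ 2 against saline 5, and the other 3 treated tumors lay below all saline tumors. Its log2 fold change was -1.02 ± 0.33 (SE, edgeR adjusted p = 0.183), with means of 7.45 ± 2.81 and 3.68 ± 1.14 CPM. The hemoglobin scavenger receptor gene had the least RNA of the 10 genes per length, with 50 to 75 counts in the treated tumors.

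Adgre1 (ENSMUSG00000004730, chromosome 17, 57358691 to 57483527) was at 33.0, 38.3, 70.1 and 26.3 CPM after saline and at 34.6, 57.6, 12.8 and 20.5 CPM after PFSUV-IMQ. Mrc1 (ENSMUSG00000026712, chromosome 2, 14229392 to 14332057) was at 137, 141, 192 and 64.0 CPM after saline and at 82.8, 175, 63.6 and 84.7 CPM after PFSUV-IMQ. Both the F4/80 gene and the mannose receptor gene were highest within each group in its hepatocyte-rich tumor, and their groups overlapped widely. The log2 fold change was -0.42 ± 0.46 for Adgre1 (SE, edgeR adjusted p = 0.793) and -0.40 ± 0.38 for Mrc1 (SE, edgeR adjusted p = 0.763). With single tumors left out, Adgre1 ran from -0.91 (without PFSUV-IMQ 2) to -0.06 (without saline 4), and Mrc1 from -0.81 to -0.17 without the same tumors.

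Cd68 (ENSMUSG00000018774, chromosome 11, 69664213 to 69666153) was at 117, 91.8, 108 and 122 CPM after saline and at 142, 96.1, 65.0 and 76.8 CPM after PFSUV-IMQ. The lysosomal marker had both its highest and its lowest value among the treated tumors, and the log2 fold change was -0.21 ± 0.24 (SE, edgeR adjusted p = 0.812), from -0.47 without PFSUV-IMQ 1 to -0.07 without PFSUV-IMQ 3. Mertk (ENSMUSG00000014361, chromosome 2, 128698956 to 128802894) was the one general marker with a positive estimate, 0.26 ± 0.15 (SE, edgeR adjusted p = 0.570). It was at 40.05, 38.4, 35.4 and 42.5 CPM after saline and at 51.5, 53.5, 42.3 and 39.4 CPM after PFSUV-IMQ. The apoptotic cell receptor gene had the smallest standard error of the 10 genes, with 2 treated tumors above every saline tumor. The 5 general markers had a median log2 fold change of -0.40, with 4 of 5 below 0. That median was -0.15 without PFSUV-IMQ 3, -0.17 without saline 4, -0.25 without PFSUV-IMQ 4 and -0.81 without PFSUV-IMQ 2.

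Siglec1 (ENSMUSG00000027322, chromosome 2, 131069220 to 131086765) was at 17.7, 13, 30.7 and 14.4 CPM after saline and at 25.6, 59.7, 14.7 and 19.6 CPM after PFSUV-IMQ. PFSUV-IMQ 2 stood highest and saline 4 next, and the other 3 treated tumors lay within the range of the saline tumors. Means were 18.9 ± 8.07 and 29.9 ± 20.4 CPM, and the log2 fold change of 0.66 ± 0.45 (SE) was not called (edgeR adjusted p = 0.633). An exact two-sided permutation test of its log2 CPM gave p = 0.371, where the smallest p that 4 against 4 tumors allow is 0.0286. With each tumor left out, the log2 fold change ranged from 0.06, without PFSUV-IMQ 2, to 0.99, without saline 4. In the same tumors, all 12 genes of a list of interferon-stimulated genes were called higher (2.26% of all tested genes were). Their log2 fold changes ran from 2.43 to 7.28, with a median of 5.02. This list was chosen with earlier results of these data known. The paper itself names Isg15, Ifit1, Ifit3, Mx1, Rsad2 and Cmpk2 among its upregulated genes, so the count is a description and not a test. The summed level of these 12 genes was 281 to 418 CPM after saline and 6582 to 22600 CPM after PFSUV-IMQ, highest in PFSUV-IMQ 2.

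Siglec1 was also read relative to the general macrophage genes of the same tumor. The log2 level of Siglec1 minus the mean log2 level of the 5 general markers was -1.30, -1.64, -0.89 and -1.23 in saline tumors 1, 3, 4 and 5. It was -0.48, 0.29, -0.66 and -0.56 in PFSUV-IMQ tumors 1 to 4. Every treated tumor lay above every saline tumor on this relative scale, as 8.54% of all tested genes did. The mean difference was -1.27 ± 0.31 after saline and -0.35 ± 0.44 after PFSUV-IMQ (SD, n = 4 each), and it was not tested, since the scale was chosen with the values known. Set against single markers, the ratio of Siglec1 to Adgre1, to Mrc1 or to Cd163 did not overlap between the groups, whereas the ratio to Cd68 or to Mertk did.

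The Kupffer genes as a group did not part from the general markers. The mean log2 level of the 4 Kupffer genes minus that of the 5 general markers was -2.26, -1.88, -1.19 and -1.59 after saline and -1.98, -1.95, -1.83 and -2.05 after PFSUV-IMQ. All 4 treated tumors lay within the saline range, with means of -1.73 ± 0.45 and -1.95 ± 0.09 (SD, n = 4 each). The Kupffer genes moved unevenly among themselves, and Vsig4 and Clec4f resembled Cd163 more than Timd4 or Marco. Over the 8 tumors, Pearson's r of log2 CPM was 0.94 for Vsig4 with Cd163, 0.88 for Vsig4 with Clec4f and 0.76 for Clec4f with Cd163. It was 0.37 for Vsig4 with Timd4 and 0.32 with Marco, while Timd4 ran with Adgre1 (0.85), Siglec1 (0.84) and Mrc1 (0.83). These are descriptions over 8 tumors of both groups, so a difference between the groups that 2 genes share raises their r. The tumors also differ in the level of hepatocyte genes.

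In normalized CPM per kilobase of exon, which allows genes to be compared, the order of mean levels after saline was Cd68 (87.2), Mrc1 (20.98), Adgre1 (12.95), Clec4f (12.2), Vsig4 (11.6), Mertk (9.01), Marco (5.66), Timd4 (3.55), Siglec1 (2.65) and Cd163 (1.36). The range of Cd68 over the saline tumors lay above that of Mrc1, and the ranges of all other neighbors in this order overlapped. After PFSUV-IMQ, Cd68 (75.6) and Mrc1 (15.9) were again highest and Cd163 (0.673) lowest. Vsig4 moved from the fifth place to the ninth, at 3.80, and Mertk from the sixth to the third, at 10.8. All 4 Kupffer genes were detected in every tumor, with at least 67 counts.

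The tumors rich in hepatocyte genes, 1 in each group, were also set against each other. This was 1 tumor against 1, without replication, and it does not control for liver tissue. Whether the hepatocyte genes came from cells of the line or from adjoining liver was not tested. The mean log2 level of 10 hepatocyte genes was 10.74 in saline 4 and 11.12 in PFSUV-IMQ 2, against 7.32 to 9.52 in the other 6 tumors. Their summed level was 4806 to 38076 CPM after saline and 7580 to 41490 CPM after PFSUV-IMQ, and none of these 10 hepatocyte genes was at 0 in any tumor. None was called (edgeR and DESeq2), with 1 higher at an unadjusted p under 0.05 (8.34% of all tested genes were). Between the rich tumors, Vsig4 was at 28.4 and 8.59 CPM, Clec4f at 41.8 and 18.7 CPM and Cd163 at 11.4 and 5.24 CPM. Among the other 6 tumors, Vsig4 was at 11.9 to 15.8 CPM after saline and at 3.74 to 5.51 CPM after PFSUV-IMQ. Clec4f was at 16.1 to 31.3 and 13.6 to 15.4 CPM there, and Cd163 at 5.10 to 7.37 and 2.76 to 3.80 CPM. These 3 of the 10 genes were lower after PFSUV-IMQ in the rich pair and without overlap in the other 6 tumors, as were 6.19% of all tested genes.

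With both rich tumors left out, Vsig4 was still called lower, at a log2 fold change of -1.57 (edgeR adjusted p = 0.0118), where 30 of 16074 tested genes were. Clec4f was at -0.89 and Cd163 at -0.98 in that fit, and neither was called (edgeR adjusted p = 0.200 and 0.148). Siglec1 was at 0.39, Marco at 0.68, Timd4 at -0.18, Adgre1 at -0.55, Mrc1 at -0.59, Cd68 at -0.24 and Mertk at 0.11 (edgeR adjusted p from 0.559 to 0.880). The median log2 fold change was -0.53 for the Kupffer genes and -0.55 for the general markers there. With the hepatocyte mean as a covariate over all 8 tumors, Vsig4, Clec4f and Cd163 were all called lower, at -1.74, -1.02 and -1.13 (edgeR adjusted p = 0.00197, 0.0199 and 0.00874). That fit called 270 of 15998 tested genes lower, against 32 without the covariate. Both settings were chosen after the values were seen. Siglec1 was at 30.7 and 59.7 CPM in the rich pair, and at 13 to 17.7 CPM against 14.7 to 25.6 CPM in the other tumors, which overlap. Marco was at 27.1 and 8.94 CPM in the rich pair but at 4.81 to 6.14 against 4.80 to 15.5 CPM, with overlap, in the other 6.

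**Figure D3:**
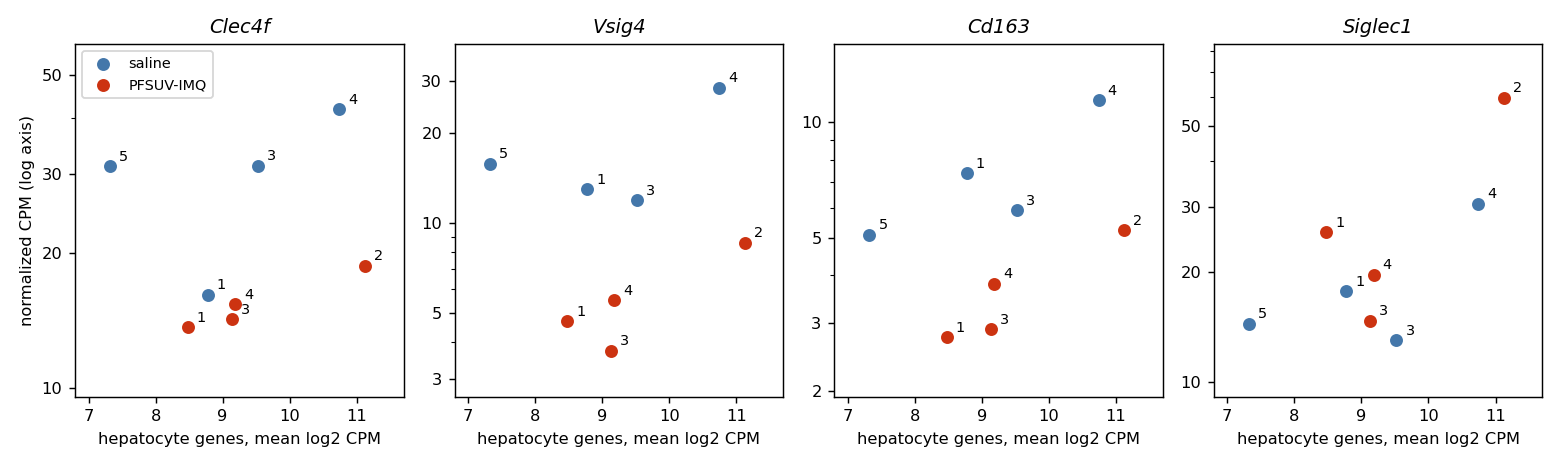
Normalized CPM (log axis) of Clec4f, Vsig4, Cd163 and Siglec1 against the mean log2 CPM of 10 hepatocyte genes, 1 point per tumor with its replicate number (blue saline, red PFSUV-IMQ). Saline 4 and PFSUV-IMQ 2 lie at the right, at 10.74 and 11.12, and for Vsig4 the treated tumor is the lower one there (8.59 against 28.4 CPM) as among the other 6.

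Further genes of the same cells were read from lists. Of 11 further Kupffer genes, all tested, 0 were called by edgeR, with 2 higher and 4 lower at an unadjusted p under 0.05 (8.34% and 4.65% of all tested genes were). DESeq2 called 2 lower, Spic and Slc40a1 (0.713% of all tested genes were called lower). The median log2 fold change of the 11 genes was -0.36. Slc40a1 (ferroportin, which exports iron recovered from red cells) was at 67.9 ± 41.2 CPM after saline and at 20.9 ± 7.14 CPM after PFSUV-IMQ (SD, n = 4 each), with no overlap, at -1.70 on the log2 scale (edgeR adjusted p = 0.0751). Spic, a transcription factor of red pulp macrophages and Kupffer cells, was at -1.48 on that scale (edgeR adjusted p = 0.152), with 2.31 ± 1.18 and 0.830 ± 0.335 CPM. Clec1b, a lectin-like receptor also found on platelets, was at -0.87 (edgeR adjusted p = 0.316). The list was not uniform, since 4 of the 11 had estimates above 0, up to 0.78. That highest estimate was for Hmox1, whose groups did not overlap either, with PFSUV-IMQ higher (edgeR adjusted p = 0.154).

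Of 18 further macrophage genes, 1 was called higher and 0 lower (2.26% and 0.200% of all tested genes were). At an unadjusted p under 0.05 in edgeR's test, 2 were higher and 0 lower (8.34% and 4.65% of all tested genes were). Their median log2 fold change was -0.03, close to that of all tested genes. The called gene was Fcgr1, the high-affinity receptor for IgG, which is itself inducible by interferon. It rose from 32.6 ± 5.61 to 81.1 ± 31.3 CPM (SD, n = 4 each), or 1.32 on the log2 scale (edgeR adjusted p = 0.0290), and was called in 3 of the 8 fits with 1 tumor left out, the call being lost without PFSUV-IMQ 2 and without any single saline tumor. Csf1r, the receptor for the growth factor that macrophages depend on, had a log2 fold change of -0.75 (edgeR adjusted p = 0.388). Cd14, the co-receptor for bacterial lipopolysaccharide, had one of 0.63 without overlap between the groups (edgeR adjusted p = 0.104). The summed level of the 18 genes was 3209 to 4592 CPM after saline and 2754 to 5376 CPM after PFSUV-IMQ.

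Among 9 monocyte genes, 1 was called lower and 0 higher by edgeR (0.200% and 2.26% of all tested genes were). At an unadjusted p under 0.05, 3 were higher and 2 lower (8.34% and 4.65% of all tested genes were). DESeq2 called 1 higher and 2 lower (3.58% and 0.713% of all tested genes were). Cx3cr1, the fractalkine receptor of patrolling monocytes and many tissue macrophages, fell by 2.81 on the log2 scale (edgeR adjusted p = 0.00243) and stayed called in all 8 of those fits. Ly6c2, a marker of classical monocytes, had a log2 fold change of 1.88 without overlap, from 5.23 ± 1.86 to 19.3 ± 11.8 CPM (SD, n = 4 each), and was not called (edgeR adjusted p = 0.0633). Ccr2, the chemokine receptor of the same monocytes, had one of -1.23 (edgeR adjusted p = 0.0890). Monocyte genes thus had estimates in both directions, with summed levels of 301 to 557 CPM after saline and 343 to 746 CPM after PFSUV-IMQ.

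Genes that share a function with single members were read as well. Of 13 genes for the uptake of apoptotic cells, which is the role of Mertk and Timd4, 12 were tested and 0 were called by edgeR or DESeq2. At an unadjusted p below 0.05, 1 was lower (4.65% of all tested genes were). The largest changes were in the receptors Cd36, Stab2 and Stab1, at -1.03, -0.83 and -0.58. Of 11 scavenger receptor genes, the class of Marco and Cd163, 0 were called by either tool, with 3 higher and 2 lower at an unadjusted p below 0.05 (8.34% and 4.65% of all tested genes were). Scara5 had the largest estimate there, 1.62 (edgeR adjusted p = 0.282), followed by Cd36 and by Olr1 at 0.94. Of 8 genes of the Siglec family besides Siglec1, 7 were tested and 0 were called by either tool. At an unadjusted p below 0.05, 1 was lower (4.65% of all tested genes were). Siglech, Siglecg and Cd22 had the largest estimates, -1.11, -0.84 and -0.36.

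Of 6 macrophage growth factor and receptor genes, 0 were called by either tool, with 1 higher at an unadjusted p under 0.05 (8.34% of all tested genes were). That gene was Csf1, the growth factor that binds Csf1r, at 105 ± 13.4 CPM after saline and at 180.0 ± 23.9 CPM after PFSUV-IMQ (SD, n = 4 each). Its groups did not overlap, and its adjusted p of 0.0428 from edgeR was under 0.05, but its log2 fold change of 0.77 was inside the limit for a call. Csf2 had a log2 fold change of 0.68 (edgeR adjusted p = 0.495).

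**Figure D4:**
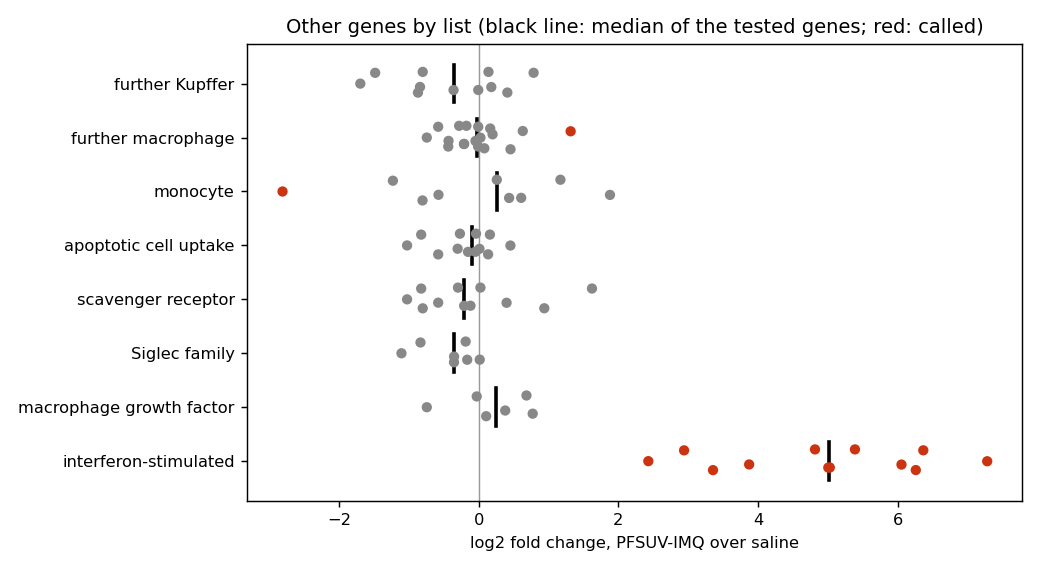
Log2 fold change (PFSUV-IMQ over saline) of each tested gene in 8 lists of further genes, with called genes in red and the median of a list as a black line. All 12 interferon-stimulated genes, a list chosen with earlier results known, are called, from 2.43 to 7.28. In the macrophage, monocyte and receptor lists the called genes are Fcgr1 (1.32) and Cx3cr1 (-2.81).

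Markers of other cells of the liver and of the blood were read beside these results. Of 7 tested genes of sinusoidal endothelium, which also carries Mrc1, 0 were called by either tool. At an unadjusted p under 0.05, 0 were higher or lower (8.34% and 4.65% of all tested genes were). The summed level was 205 to 384 CPM after saline and 165 to 333 CPM after PFSUV-IMQ. The lists of 7 tested neutrophil, 6 T cell and 5 B cell genes held no called gene by either tool. At an unadjusted p below 0.05, 2, 0 and 1 of them were higher and none lower (8.34% and 4.65% of all tested genes were). Of 8 dendritic cell genes, 0 were called by edgeR, with 3 lower at an unadjusted p under 0.05 (4.65% of all tested genes were). DESeq2 called Flt3 lower, as it did 0.713% of all tested genes (log2 fold change -1.14, adjusted p = 0.147 from edgeR). The summed neutrophil level was 17.9 to 73.7 CPM after saline and 36.2 to 161 CPM after PFSUV-IMQ, and no gene of these lists was at 0 in any tumor. The median log2 fold change was -0.38 for the sinusoidal, -0.56 for the dendritic cell and -0.22 for the T cell genes. It was 1.16 for the neutrophil and 0.63 for the B cell genes. The part of these cells in the values of the 10 genes was not tested.

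Genes whose levels most resembled those of a member over the 8 tumors were ranked by Pearson's r of log2 CPM among all tested genes. For Vsig4 they were Tmem204 (0.98), Abcc9 (0.97) and Coro2b (0.96), of which Tmem204 was called lower as well, at a log2 fold change of -1.46 (edgeR adjusted p = 0.0435), a call kept in 0 of the 8 fits with 1 tumor left out (edgeR adjusted p up to 0.116). For Clec4f they were Lrat (0.97), Fam229b (0.97) and Spic (0.96). For Cd163 they were Rgs19 (0.98), Cep68 (0.97) and Pcdh18 (0.96). For Siglec1 they were Iqsec2 (0.98), P2ry2 (0.96) and Nlrp3 (0.96), none of them from the list of interferon-stimulated genes. With 8 tumors from both groups and all tested genes to choose from, high values arise readily, and they are given as a description.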

How the data were processed

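Messenger RNA libraries (KAPA mRNA HyperPrep) were sequenced from 8 tumors, 4 per group, and groups were taken from the library labels. The authors deposited whole-number counts of reads per gene, and these counts were used for every test. A second deposited table holds the counts divided by 1 size factor per tumor (a signal value, made by the authors with DESeq2), to within 5.4e-10. It was used for gene names and for an added alternative. The submitters' processing notes name Trimmomatic 0.38, HISAT2 2.1.0 and featureCounts 2.0.0, whereas the methods name TopHat and HTSeq, so the aligner and counter are uncertain. Strand setting and genome build are not given in the sources used here. All 55536 identifiers are in GENCODE M21 of GRCm38, from which coordinates and exon lengths were taken. No columns of values were left unmapped.

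In R 4.3.3, edgeR 4.0.16 was run without covariates, using its quasi-likelihood test, TMM factors and the default low-count filter. Genes were called at an adjusted p under 0.05 over 15998 genes with a log2 fold change beyond 1. Log2 CPM used a prior count of 2. Standard errors were derived from the test statistic. DESeq2 1.42.0 was run on the same filtered genes. Scripts in Python 3.11.15 (pandas 2.3.3, numpy 2.4.6, scipy 1.17.1) made the summaries, and the fits were tested on simulated data. Alternatives were upper-quartile normalization, DESeq2's size factors, at least 10 counts in every tumor, no low-count filter, DESeq2's Wald test, no limit on the fold change, the replicate number as a block, and each tumor left out. Added after seeing the data were the authors' size factors, a hepatocyte covariate, and leaving out saline 4 and PFSUV-IMQ 2 together.

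The 10 genes and all lists were chosen with earlier results of these data known. The genes named are the 10, the called genes and the 3 largest changes of each list (for the marker lists of other cells, counts only), and the 3 genes most like a member. Alb, Flt3 and Hmox1 were named after their values were seen. Mice are separate animals, but no further detail of their handling is given, so p-values reflect the spread between these tumors. Totals of 16883911 to 27687756 counts limit what low genes can show, and limits from counts cover counting error only.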

Additional observations from a re-analysis of the deposited data

Results flagged for a closer look

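Of the 20 groups of 4 tumors formed by the 10 genes, 2 held a value far from the rest, past the critical value of Dixon's test for 4 samples, and chance gives about 1 in 20 groups. Timd4 in PFSUV-IMQ 2 was at 17.0 CPM, with a gap to the next tumor of its group that took 0.858 of the group's range. Marco in saline 4 was at 27.1 CPM, with a gap of 0.941 of the range. Both tumors were the hepatocyte-rich ones of their groups, and the part of liver tissue in these values was not tested.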

How the results depend on the processing

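The edgeR fit called 362 genes higher and 32 lower, and 1 of the 10 marker genes, Vsig4, lower. Vsig4 was called in each of the 10 settings other than leaving out 1 tumor, with adjusted p from 6.5e-04 to 0.0456 (edgeR or DESeq2). These settings were not independent. The one without a limit on the fold change reused the main fit and could not lose the call. With 1 tumor left out, the call of Vsig4 was kept in 1 of 8 fits. Without a filter on low counts, 63 genes were lower. DESeq2's Wald test called 572 genes higher and 114 lower. With the hepatocyte covariate, 547 genes were higher and 270 lower, and 3 of the 10 were lower (Clec4f, Vsig4 and Cd163). With each tumor left out in turn, 197 to 375 genes were higher, 8 to 38 were lower, and 0 to 1 of the 10 were lower. Fewer tumors were fitted there. The cause of the other changes was not tested. The groups share the replicate numbers 1, 3 and 4. Deviations from the group means correlated at 0.29, -0.27 and -0.32 between tumors with the same number, and PFSUV-IMQ 2 correlated best with saline 4 (0.68). The labels do not say what the numbers mean. With 1 pair per shared number, these correlations cannot settle whether the numbers pair animals. With the number as a replicate block, 416 genes were higher and 267 lower, 3 of the 10 were lower (Vsig4, Mrc1 and Cd163, Mrc1 at -1.02 and Cd163 at -1.35), and the median of the general markers was -1.02. Siglec1 was at 0.02 with that block (edgeR adjusted p = 0.970). Adgre1 was at -1.10, Timd4 at -0.54 and Marco at -0.11 there, none of them called. In the block fit, PFSUV-IMQ 2 and the saline tumor whose number is not shared each had a block of their own. They therefore added nothing to the treatment difference, which rested on the tumors numbered 1, 3 and 4 of each group. The hepatocyte-rich treated tumor thus had no part in that estimate, whereas saline 4 did. No called direction reversed in any setting. Cd163 rested on the fewest counts of the 10 genes.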
